A study of Mus musculus with 2 samples.

Results

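The cadherins, protocadherins and desmosomal genes were followed in a gastric epithelial cell line separated by the surface antigen CD133. Members were chosen by the gene name given to a spot: Cdh, Pcdh, Dsg, Dsc or Pkp followed by a digit, the clustered protocadherins Pcdha, Pcdhb and Pcdhg, and Dsp, Jup, Ctnna1, Ctnnb1, Ctnnd1, Evpl and Ppl. They came to 87 of the 27670 genes on the array, carried by 152 probes and 170 spots. The rule uses names and no measured value. One of them, Pcdh21, is called Cdhr1 in RefSeq. A member was tested where a probe was well above background in the same fraction on both arrays, and 40 of the 87 members were.

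The cells were GIF-5, a mouse gastric epithelial line whose genotype is Runx3-/-p53-/-, so both fractions lacked the transcription factor Runx3 and the tumour suppressor p53. Cultured cells were stained with an antibody to CD133, a membrane glycoprotein encoded by Prom1, and sorted into a CD133-positive and a CD133-negative fraction. RNA of both fractions was hybridised together on each of 2 two-colour Agilent arrays, CD133-positive in Cy3 and CD133-negative in Cy5. The labels call the arrays biological replicates and do not say whether cultures or sorts were separate, so the p-values measure the spread between these arrays, which may be technical. As 1 line of a single genotype was used and no unsorted or Runx3-carrying cells were measured on the arrays analysed here, the values describe a contrast inside this line. The dyes were not swapped, so a dye effect and the fraction cannot be told apart.

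Cadherins are calcium-dependent adhesion proteins. Classical cadherins hold neighbouring epithelial cells together at adherens junctions, where their tails bind p120 catenin (Ctnnd1) and beta-catenin (Ctnnb1), and alpha-catenin (Ctnna1) joins that complex to actin. Desmosomes are built from the desmosomal cadherins, desmogleins and desmocollins, which are anchored through plakoglobin (Jup) and plakophilins to desmoplakin (Dsp) and from there to keratin filaments. Protocadherins are cadherins without catenin-binding tails, studied mostly in neurons, where the clustered ones give cells an identity code.

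Several transcription factors that repress E-cadherin bind the E-box CACCTG, which reads CAGGTG on the other strand. The motif was searched on both strands, with no other motif overlapping it, in RefSeq promoter windows of GRCm38.p6 of 300 bases that span a gene start. It stood in 6640 of 32851 windows of all genes (20.2%) and in 8 of the 34 windows of the 28 members that matched by symbol (23.5%). Several of those 8 windows belong to the same member, Cdh7, which had no probe above background. Cdh1, Cdh5 and Cdh13 had no window here, so the motif was not searched in the E-cadherin gene (Cdh1) itself. The windows of 3 members are shown because these were the ones with a mean log2 ratio of at least 1 in size that had a window to print here, and each is referred to again beside its values. Capitals mark the motif. The Pcdh19 window is chrX:133688944-133689243 on the minus strand, the Pcdh7 window chr5:57717831-57718130 on the plus strand, and the Dsp window chr13:38151044-38151343 on the plus strand.
Pcdh19: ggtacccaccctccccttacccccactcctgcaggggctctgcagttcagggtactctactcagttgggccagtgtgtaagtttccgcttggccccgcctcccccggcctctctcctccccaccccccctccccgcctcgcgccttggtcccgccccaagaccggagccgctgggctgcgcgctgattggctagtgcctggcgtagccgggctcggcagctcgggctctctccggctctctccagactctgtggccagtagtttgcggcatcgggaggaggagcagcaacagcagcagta
Pcdh7: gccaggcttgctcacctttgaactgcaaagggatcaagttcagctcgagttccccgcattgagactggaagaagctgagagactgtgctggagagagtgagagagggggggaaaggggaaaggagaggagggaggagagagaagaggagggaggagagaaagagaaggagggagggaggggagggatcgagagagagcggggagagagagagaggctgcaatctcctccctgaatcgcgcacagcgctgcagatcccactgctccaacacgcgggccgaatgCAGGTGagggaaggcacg
Dsp: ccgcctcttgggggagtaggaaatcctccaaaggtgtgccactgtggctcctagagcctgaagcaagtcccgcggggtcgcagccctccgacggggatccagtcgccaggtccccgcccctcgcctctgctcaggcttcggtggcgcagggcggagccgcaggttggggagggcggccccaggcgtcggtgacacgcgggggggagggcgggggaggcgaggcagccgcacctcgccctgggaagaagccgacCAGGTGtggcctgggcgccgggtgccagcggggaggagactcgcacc
The Dsp window held the motif once, from base 254, and the Pcdh7 window once, from base 283. The Pcdh19 window did not hold these letters. A match describes the window and does not show that a factor binds there.

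The sort was visible in the arrays: the log2 ratio of CD133-positive over CD133-negative cells for Prom1 was 3.83 on array 1 and 3.73 on array 2, a mean of 3.78 ± 0.14 (SE, n = 2 arrays, limma adjusted p = 0.00966). Between 23498 and 25213 of the 43379 non-control spots of an array were well above background in a fraction, and no spot was saturated. Of 9 tested gastric epithelial markers, 4 rose in CD133-positive cells (Gkn2, Tff1, Pga5 and Muc1), and none fell. Among simple-epithelium markers 7 of 10 were tested and none was called, with Krt8, Krt18 and Krt19 well above background in both fractions, while Epcam and Cldn4 were not well above background in a fraction on both arrays. Array 2 had the wider ratios, with an SD over all tested genes of 0.76 against 0.60 on array 1.

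Ratios near 0 were less frequent among the tested adhesion genes than over all tested genes, and a few members stood far out in either direction. Across all 15267 tested genes, limma called 211 higher in CD133-positive cells (1.38%) and 40 lower (0.262%) at an adjusted p under 0.05, or 1.64% in either direction. Among the 40 tested members, 1 was called higher, Cdh5, and none was called lower. Counted by size with no test, 3 members (Pcdh19, Cdh5 and Cdh13) were at least 2-fold higher on both arrays, where 2.5% of all tested genes were, and 1 member (Dsp) was at least 2-fold lower on both, where 2.12% of all tested genes were. At an unadjusted p under 0.05, 5 members were higher and 11 lower, beside 11.9% and 16% of all tested genes. The median log2 ratio was -0.08 over the tested members and -0.03 over all tested genes. Mean ratios within 0.5 of 0 on the log2 scale were found for 25 of the 40 members (62.5%) and for 73.9% of all tested genes. Of those 25 members, 11 were clustered protocadherins, which were dim except for Pcdhga7, so their small ratios say little. The arrays had the same sign for 82.5% of the members and 72.2% of all genes.

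**Figure D1:**
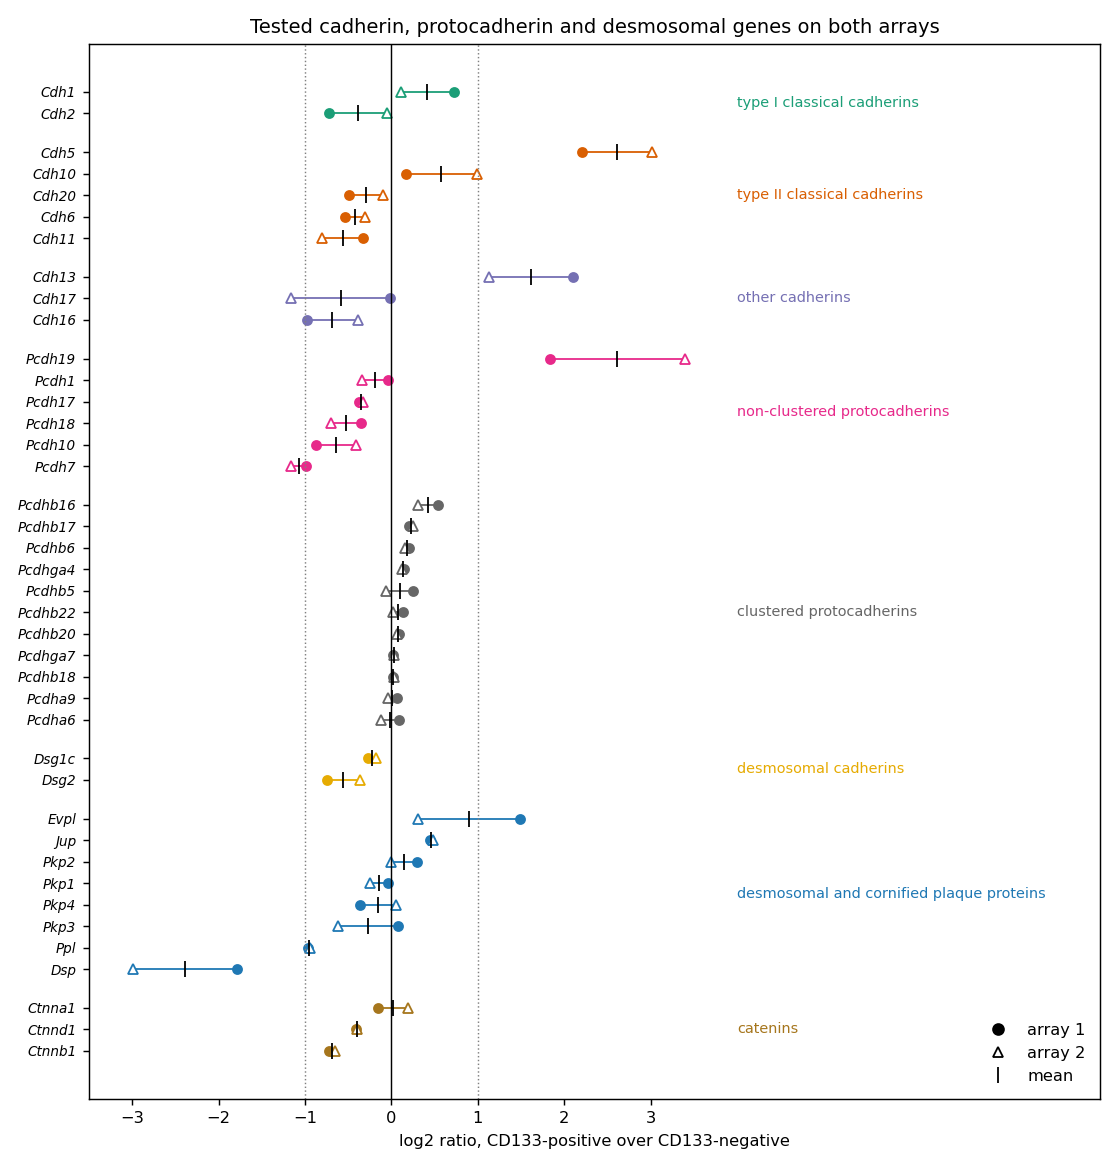
Log2 ratio of CD133-positive over CD133-negative cells (x axis) for each of the 40 tested members (y axis, grouped by role): filled circles are array 1, open triangles array 2, vertical ticks their mean, and dotted lines mark 2-fold. Cdh5, Pcdh19 and Cdh13 lie beyond 2-fold to the right and Dsp to the left on both arrays. The clustered protocadherins all lie within 0.5 of 0 in the mean, and all but Pcdhga7 had dim probes.

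**Figure D2:**
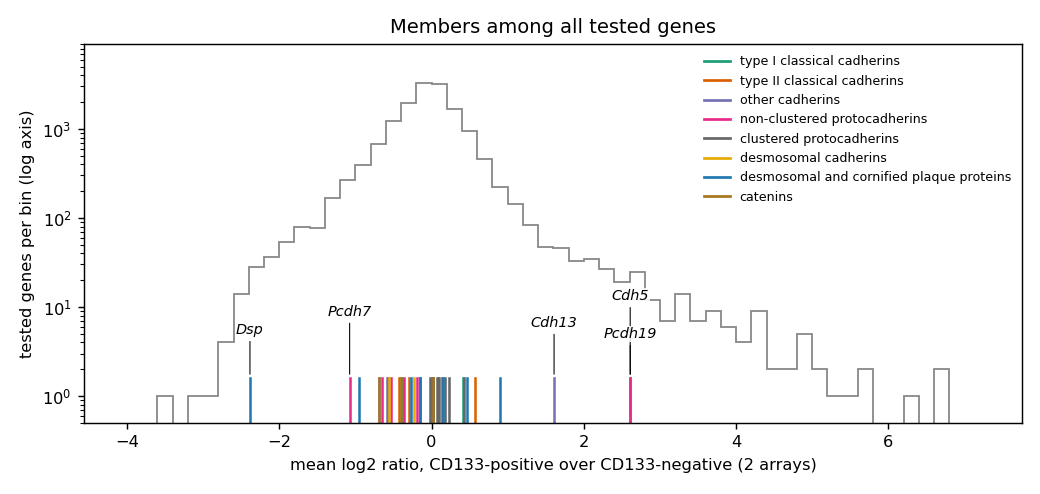
Outline of the mean log2 ratios of all 15267 tested genes (x axis, log2 CD133-positive over CD133-negative; y axis, tested genes per bin on a log axis), with a coloured tick for each tested member by role. Pcdh19, at 2.61, and Cdh5, drawn at its measured ratio although CD133-negative cells were at background, lie in the upper tail, and Dsp, at -2.38, in the lower tail.

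Among the classical cadherins of type I, 2 of 5 were tested and neither was called. Cdh1, or E-cadherin, the main cadherin of epithelial adherens junctions, had log2 intensities of 13.24 and 13.12 in CD133-positive cells on arrays 1 and 2, against 12.52 and 13.01 in CD133-negative cells. Both CD133-positive values lay above both CD133-negative ones, by 0.72 on array 1 and 0.11 on array 2. The mean log2 ratio was 0.42 ± 0.21 (SE, n = 2, limma adjusted p = 0.285). The Cdh1 probe was printed 10 times on each array, and its ratios ran only between 0.69 and 0.75 within array 1 and between 0.07 and 0.13 within array 2. The spread between the arrays was therefore far wider than the spread between spots.

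Cdh2, or N-cadherin, typical of neural and mesenchymal cells, had 8.96 and 9.34 in CD133-positive cells, against 9.69 and 9.39 in CD133-negative cells. The fractions did not overlap, yet on array 2 they were nearly equal. Its mean log2 ratio was -0.39 ± 0.22 (SE, n = 2, adjusted p = 0.332). Both epithelial and neural cadherins were thus measured in both fractions, without a call for either. Cdh3 (P-cadherin), Cdh4 and Cdh15 were not tested, having no probe well above background on any array.

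The type II classical cadherins held the single call. Cdh5 encodes VE-cadherin, which joins endothelial cells at their adherens junctions. Its log2 intensities were 7.88 and 8.76 in CD133-positive cells, against 5.68 and 5.74 in CD133-negative cells, where neither of its probes cleared background. The fractions were widely separated. Because the CD133-negative value is only an upper limit, the difference is given as a bound: Cdh5 rose to a level at least 5.81-fold higher in CD133-positive cells. Such bounds set the mean of the measured fraction against, per array, the higher of the dim probe's own signal and the lowest signal among probes well above background. The measured log2 ratios were 2.20 and 3.02 (n = 2, limma adjusted p = 0.0431), taken against that CD133-negative signal at background. The probe lies at chr8:102744763-102744822 and a further one at chr8:102744103-102744162 in the coordinates of the files, whose build is not given in the sources used here. That further probe, dimmer, gave 1.00 and 1.45, and a bound of at least 2.34-fold. The Cdh5 call depended on the filter and the probe: the adjusted p was 0.113 with every gene tested whatever its signal, which left its log2 ratio, relative to the median of all genes, at 2.61, and it was 0.0917 with the dimmer probe.

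Endothelial markers were read beside Cdh5. Of 8 on the array, Vwf, the clotting factor carrier of endothelial cells, rose, with log2 intensities of 10.52 and 10.99 in CD133-positive cells, against 6.91 and 7.10 in CD133-negative cells, and a mean log2 ratio of 3.75 ± 0.15 (SE, n = 2, limma adjusted p = 0.0119). The other 7, Pecam1, Kdr, Tek, Emcn, Erg, Tie1 and Cldn5, gave background-level signal only, in every fraction and array. Summed linear intensities of the 8 genes were 1909 and 2484 in CD133-positive cells, against 556 and 602 in CD133-negative cells. Without Vwf, the sums were 437 and 452 in CD133-positive cells, against 435 and 465 in CD133-negative cells. The defining endothelial markers other than Vwf were therefore at background in both fractions. In bulk RNA a larger share of cells with a transcript and more transcript per cell cannot be told apart, for Cdh5 and for every other member.

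The other 4 tested members of type II were Cdh10, Cdh20, Cdh6 and Cdh11, with mean log2 ratios of 0.58, -0.29, -0.42 and -0.57. None of them passed the test, and each had the same sign on both arrays. Cdh11, a cadherin of mesenchymal cells, had log2 intensities of 9.70 and 9.68 in CD133-positive cells, against 10.03 and 10.48 in CD133-negative cells. Its fractions did not overlap. The remaining 8 genes of this subfamily had no probe above background.

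Cdh13, Cdh17 and Cdh16 were the tested members with an unusual architecture. Cdh13, or T-cadherin, lacks a cytoplasmic tail, is held in the membrane by a lipid anchor and binds adiponectin. It had log2 intensities of 11.85 and 11.19 in CD133-positive cells, against 9.75 and 10.07 in CD133-negative cells. The fractions were clearly apart on both arrays, by log2 ratios of 2.10 and 1.12. The mean of 1.61 ± 0.28 (SE, n = 2, adjusted p = 0.0821) did not pass the test.

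Cdh17, or LI-cadherin, an intestinal cadherin with a short tail, had 7.28 and 6.77 in CD133-positive cells, against 7.30 and 7.93 in CD133-negative cells. The arrays differed in size here, with log2 ratios of -0.02 and -1.16 and a mean of -0.59 ± 0.32 (SE, n = 2, adjusted p = 0.321). Cdh16, or kidney-specific cadherin, had a mean log2 ratio of -0.68 and did not pass. Cdx2, a transcription factor of intestinal epithelium, named after its value was seen, had a mean log2 ratio of 0.19 and did not pass either.

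Among 13 non-clustered protocadherins, 6 were tested. Pcdh19 encodes a delta protocadherin of neurons, mutated in a human X-linked epilepsy. Its log2 intensities were 8.10 and 9.64 in CD133-positive cells, against 6.27 and 6.25 in CD133-negative cells. The CD133-negative values hardly differed, while the CD133-positive values lay apart. The mean log2 ratio was 2.61 ± 0.42 (SE, n = 2) and did not pass the test (limma adjusted p = 0.0760). The CD133-negative values lay close to the signal of probes at background, so the size of the ratio is uncertain. Relative to the median of all genes it was 2.64, and 4.22 with the deposited processed signals. A further Pcdh19 probe, at background in CD133-negative cells, had ratios of only 0.20 and 0.55 and a bound of at least 1.30-fold. The promoter window printed above for Pcdh19 was the one without the E-box.

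Pcdh7, a delta protocadherin also studied mostly in the brain, had 8.22 and 7.28 in CD133-positive cells, against 9.21 and 8.44 in CD133-negative cells. CD133-positive cells had the lower value on each array, by log2 ratios of -0.99 and -1.16, and the fractions did not overlap. Its mean was -1.08 ± 0.14 (SE, n = 2, adjusted p = 0.0659). The Pcdh7 promoter window above held the E-box 32 bases after the gene start. Pcdh1, Pcdh17, Pcdh18 and Pcdh10 had means between -0.65 and -0.19, none of which passed, and Pcdh17 was at background in CD133-positive cells. Neuronal markers were at 855 and 871 in summed intensity in CD133-positive cells, against 1044 and 1214 in CD133-negative cells, with 2 of 7 tested and none called, and their part in these ratios was not tested.

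The clustered protocadherins, which all lie on chromosome 18, had small ratios where tested. Of 31, 11 were tested, their mean log2 ratios ran between -0.02 (Pcdha6) and 0.42 (Pcdhb16), and none was called. All but Pcdhga7 were dim, with log2 intensities between 6.12 and 7.24. That is close to the signal of probes at background, so their small ratios say little of how alike the fractions are. With the deposited processed signals Pcdhb16 was called, and with median centring over tested probes it and several others were. The beta genes are related in sequence, so the probes of Pcdhb5, Pcdhb6, Pcdhb16, Pcdhb17, Pcdhb18, Pcdhb20 and Pcdhb22 may share signal, which was not tested. Alpha and gamma transcripts join a variable exon to constant exons common to their cluster. Of 4 probes named Pcdhga7, 3 lie 70.2 to 71.8 kb beyond the probe of Pcdhga12, the last gamma-A variable exon, and gave mean log2 ratios of 0.08, -0.01 and 0.03, while the one at -52.6 kb, upstream of it, was not well above background on any array. The brightest Pcdhga7 probe had log2 intensities of 11.27 and 11.51 in CD133-positive cells, against 11.25 and 11.47 in CD133-negative cells. Its signal was therefore almost equal in the fractions and cannot be given to a single gamma isoform.

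Desmosomal genes were the group with the member lowest in CD133-positive cells. Dsp encodes desmoplakin, which links the desmosomal plaque to keratin filaments. Its log2 intensities were 9.23 and 8.07 in CD133-positive cells, against 11.01 and 11.06 in CD133-negative cells. The fractions were far apart, with tight CD133-negative values and wider CD133-positive values. The mean log2 ratio was -2.38 ± 0.34 (SE, n = 2), a 5.22-fold difference and the 28th lowest of all tested genes, but the limma adjusted p of 0.0672 missed the threshold. A further Dsp probe with signal in both fractions gave -1.93. Another, at background in CD133-positive cells, gave -0.27, at least 1.21-fold lower in CD133-positive cells. The brightest probe lies at chr13:37617147-37617206 in the file coordinates, and the Dsp promoter window above held the E-box 3 bases after the gene start.

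The plakins Ppl and Evpl, which help to build the cornified envelope of keratinocytes and join desmosomes, had opposite signs. Ppl, or periplakin, had 10.00 and 9.87 in CD133-positive cells, against 10.96 and 10.82 in CD133-negative cells. Its fractions did not overlap and its log2 ratios of -0.96 and -0.95 were almost identical, with a mean of -0.95 ± 0.14 (SE, n = 2, adjusted p = 0.0675). A dimmer Ppl probe gave -0.21. Evpl, or envoplakin, had 9.92 and 10.48 in CD133-positive cells, against 8.44 and 10.17 in CD133-negative cells. Its fractions overlapped, and the ratios of 1.48 and 0.31 gave a mean of 0.90 ± 0.33 (SE, n = 2, adjusted p = 0.186).

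Jup, or plakoglobin, which serves both desmosomes and adherens junctions, had 10.21 and 10.32 in CD133-positive cells, against 9.77 and 9.84 in CD133-negative cells. The fractions did not overlap, with a mean log2 ratio of 0.46 ± 0.14 (SE, n = 2, adjusted p = 0.139). The plakophilins, armadillo proteins of the plaque, lay closer to 0, with mean log2 ratios of 0.14 for Pkp2, -0.16 for Pkp4 and -0.28 for Pkp3. Pkp1 was dim in CD133-negative cells too (6.20 and 6.34), and its bound of 1.11-fold lower in CD133-positive cells was its measured ratio. Adjusted p-values of the 4 lay between 0.494 and 0.623, so no difference was established for Pkp1. On neither array did Pkp1 clear background in CD133-positive cells. Dsg2, the desmoglein of simple epithelia, had 10.72 and 10.39 in CD133-positive cells, against 11.46 and 10.76 in CD133-negative cells. Its fractions did not overlap, and its mean log2 ratio was -0.56 ± 0.17 (SE, n = 2, adjusted p = 0.142). Dimmer tested Dsg2 probes gave -0.45, -0.40 and 0.09. Dsg1c was at background in CD133-positive cells and dim in CD133-negative cells (6.65 and 6.25). Its bound of 1.17-fold lower in CD133-positive cells was its measured ratio, which did not pass (adjusted p = 0.360). The 7 other desmosomal cadherins, Dsc2 among them, had no probe above background.

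All 3 catenins were tested, and none was called. Ctnnb1, beta-catenin, which is also the effector of Wnt signalling, had 12.85 and 12.86 in CD133-positive cells, against 13.57 and 13.52 in CD133-negative cells. Both fractions were tightly grouped and did not overlap. The mean log2 ratio was -0.69 ± 0.14 (SE, n = 2, adjusted p = 0.0879). Another Ctnnb1 probe, printed 10 times, gave -0.48, and the dimmest gave -0.12. Ctnnd1, p120 catenin, which keeps cadherins at the cell surface, had 8.82 and 8.73 in CD133-positive cells, against 9.23 and 9.13 in CD133-negative cells, a mean log2 ratio of -0.40 ± 0.14 (SE, n = 2, adjusted p = 0.167). The dimmer tested Ctnnd1 probes did not share this size, with mean log2 ratios of 0.19 and -0.05. Ctnna1 had log2 intensities of 14.61 and 14.99 in CD133-positive cells, against 14.76 and 14.79 in CD133-negative cells. Its fractions overlapped, with a mean log2 ratio of 0.02 ± 0.16 (SE, n = 2).

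**Figure D3:**
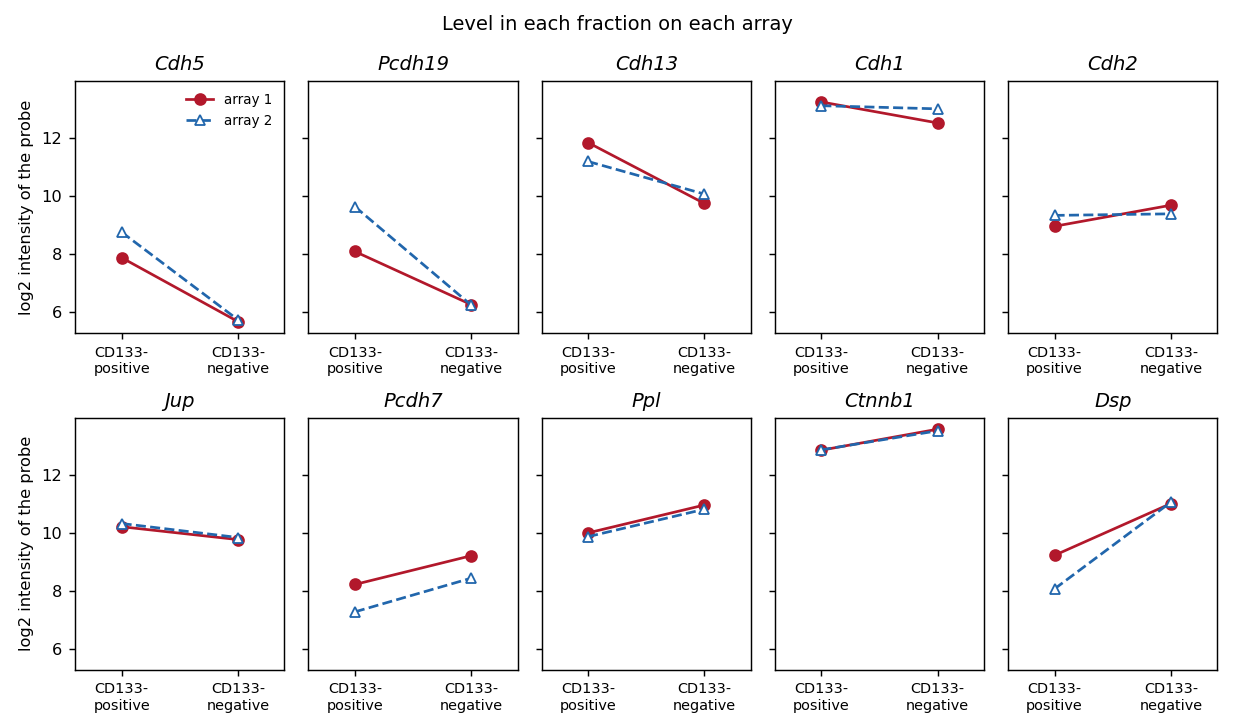
Log2 intensity of the brightest tested probe (y axis) of 10 members in CD133-positive cells (left) and CD133-negative cells (right); red circles and solid lines are array 1, blue triangles and dashed lines array 2. Cdh5, Pcdh19 and Cdh13 slope down to CD133-negative cells on both arrays, Dsp, Ppl, Pcdh7 and Ctnnb1 slope up, and Cdh1 and Cdh2 are nearly flat on array 2.

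Probes of the same gene were compared where more than 1 was tested. This was so for 14 members, and their mean signs matched in 10. They differed for Ctnnd1, Dsg2, Pcdhga7 and Pkp4, where at least 1 probe lay near 0. In all 14 except Pcdhga7, the brightest probe had the largest ratio in size, Cdh5, Pcdh19, Dsp and Ctnnb1 included. The brightest probe also stood for its gene, so the ratios given per gene were mostly the largest among its probes.

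**Figure D4:**
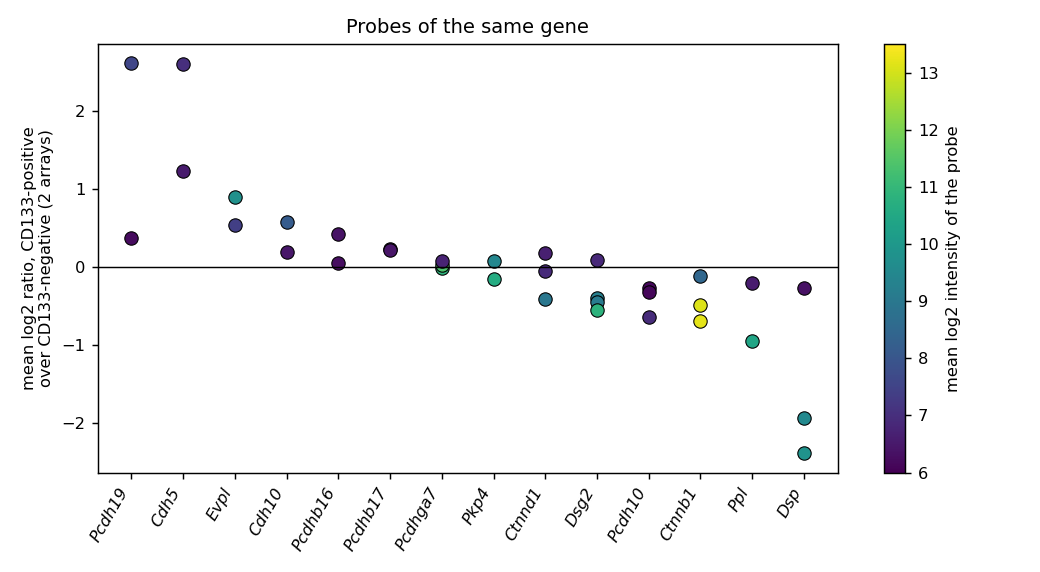
Mean log2 ratio over the 2 arrays (y axis, CD133-positive over CD133-negative) of each tested probe of the 14 members with more than 1 (x axis); the colour gives the probe's mean log2 intensity. The dimmest probe of Pcdh19, at 0.38, and that of Dsp, at -0.27, sit near 0 beside bright probes at 2.61 and -2.38.

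Partners of these proteins were counted in the same way. Of 54 genes that bind, process or resemble cadherins, 39 were tested, and 1 was called higher and none lower, where 1.38% of all tested genes were called higher and 0.262% lower. Their median log2 ratio was 0.02, beside -0.03 over all tested genes. Anks4b, an ankyrin-repeat scaffold at the tips of microvilli, rose, with log2 intensities of 8.85 and 9.15 in CD133-positive cells, against 7.22 and 7.37 in CD133-negative cells. Its fractions did not overlap, and the mean log2 ratio was 1.71 ± 0.14 (SE, n = 2, limma adjusted p = 0.0327). In enterocytes Anks4b works with the protocadherins Cdhr2 and Cdhr5, harmonin (Ush1c) and Myo7b, named here after their values were seen. Their mean log2 ratios were -0.97 for Cdhr2, 0.60 for Cdhr5, 0.43 for Ush1c and 0.26 for Myo7b, and none passed the test.

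A further 3 partners were at least 2-fold lower in CD133-positive cells on both arrays without a call. Celsr1, a seven-pass cadherin of planar cell polarity, had log2 ratios of -1.32 and -2.82. Ptprm, a receptor tyrosine phosphatase that associates with cadherins, had -1.14 and -2.18. Plec, the plakin plectin, which links keratin filaments to hemidesmosomes, had -1.07 and -1.12. Their adjusted p-values in limma were 0.0879 for Celsr1, 0.0826 for Ptprm and 0.0619 for Plec.

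Of 21 repressors of cadherin genes and regulators of epithelial fate, 15 were tested and none was called. The E-box binding repressors Snai2 and Zeb2 and the mesenchymal factor Twist2, named after their values were seen, were at least 2-fold lower in CD133-positive cells on both arrays. Snai2 had log2 intensities of 8.61 and 8.32 in CD133-positive cells, against 10.09 and 10.42 in CD133-negative cells. The fractions were well apart, but its mean log2 ratio of -1.79 ± 0.21 (SE, n = 2, adjusted p = 0.0570) missed the threshold, as did -1.57 for Zeb2 and -2.22 for Twist2. Zeb1, a paralog of Zeb2 named after its value was seen, had -0.68 and did not pass. Grhl1, Klf4 and Hnf4a, factors of epithelial cells chosen after their values were seen for their positive signs, had 0.56, 0.48 and 0.57, and none passed.

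Marker lists of other cell types were read beside Dsp, Ppl and Cdh11. For 12 fibroblast and muscle markers, summed linear intensities were 9139 and 9782 in CD133-positive cells, against 8476 and 9361 in CD133-negative cells, with 5 tested and none called. Acta2, a muscle actin, was the brightest of them and made up most of each sum. Col1a1, a fibrillar collagen, had log2 ratios of -1.03 and -1.47 and Cnn1, a smooth muscle calponin, had -0.99 and -0.78. Cnn1 was not well above background on both arrays in CD133-positive cells. The other tested genes of the list did not fall, with means of 0.13 for Acta2, 0.08 for Col1a2 and 0.27 for Des. All of these were named after their values were seen. Neither Col1a1 (adjusted p = 0.0673) nor Cnn1 (0.0776) passed the test. For the 10 simple-epithelium markers the sums were 234627 and 204317 in CD133-positive cells, against 324277 and 335455 in CD133-negative cells. Krt8, Krt18 and Krt19 made up most of each sum, with mean log2 ratios of -0.78, -0.54 and -0.79. Krt7, Krt20 and Cldn7 went the other way, with 1.32, 0.49 and 0.38, and the median over the tested genes of this list was 0.0015. These keratins and Cldn7 were named after their values were seen. For 11 markers of the squamous forestomach they were 4884 and 5636 in CD133-positive cells, against 3746 and 3607 in CD133-negative cells, with 7 tested and none called. Of the last list, Lor, loricrin of the cornified envelope, had log2 ratios of 2.40 and 3.82 (adjusted p = 0.0617). It was the only tested gene of that list to stand out: 6 of the 7 had mean log2 ratios within 0.5 of 0, from -0.13 for Krt10 to 0.20 for Krt13. Another 3 genes of the list, Krt4, Trp63 and Sprr3, had no probe above background. Lor, Krt10 and Krt13 were named after their values were seen. Mesothelial markers summed to 14197 and 8402 in CD133-positive cells, against 37463 and 33944 in CD133-negative cells, with 3 of 4 tested and none called. Most of each sum came from 1 gene, Msln, which was lower in CD133-positive cells on both arrays. Upk3b had log2 ratios of -0.18 and 0.80, Wt1 was at background in CD133-positive cells, and Lrrn4 had no probe above background. These genes were named after their values were seen. The part of these lists in the ratios of the adhesion genes was not tested.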

How the data were processed

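The authors deposited, per the file headers, 2 scanner files of Agilent Feature Extraction 9.5.3.1 with spot and local background brightness as unnormalised intensity, and processed signals that the program background-subtracted and dye-normalised. The deposited log10 ratio, repeated in the value table in all 45018 spots, has Cy5 on top per the file headers, that is, the CD133-negative fraction, and its column medians were 0 on both arrays.

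From the intensities, normexp background correction (offset 50) and loess within each array, with control spots at weight 0, gave log2 ratios with the CD133-positive fraction on top. Repeated spots were averaged without those that carried an outlier flag. Testing required a probe to be well above background in the same channel on both arrays, and the brightest tested probe (mean log2 intensity) stood for its gene. Intensities per fraction were also scaled between arrays (Aquantile). Names came through accessions (22951 probes) or symbols (9768) in the RefSeq table of GRCm38.p6, and 8455 probes kept the name in the files. This left 23173 probes and 15267 genes.

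The mean ratio of each gene was tested against 0 in limma 3.58.1 (R 4.3.3), as a two-sided test at a Benjamini-Hochberg adjusted p of 0.05 over the whole array. Each gene had 1 residual degree of freedom, to which 2.86 prior ones were added. SEs are moderated, and the code was tested on simulated data. The 2 arrays limit the precision. They shared 1 slide and a scan time, so no batch could be compared.

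The member rule reads names alone, but it, the lists and the tests were chosen with earlier results of these data known. Named with values were members called or at least 2-fold changed on both arrays, a set of junction genes whatever their values (Cdh1, Cdh2, Cdh3, Cdh17, Dsg2, Dsc2, Dsp, Jup, Pkp1, Pkp2, Pkp3, the catenins, Evpl, Ppl), partners by the same thresholds, and Prom1. Members in a count of 5 or fewer were named too. Pcdh7, Pcdhga7, Cdh16, Pkp4, Dsg1c, the range ends Pcdha6 and Pcdhb16 and the intensities of Cdh11 fall outside that rule and were chosen after their values were seen. Alternatives covered background correction, normalisation, the filter, the choice of probe, the variance and single arrays. The values of 1 marker gene are not reported here.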

Additional observations from a re-analysis of the deposited data

How the results depend on the processing

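Directions and sizes of single genes below are taken against the median over every tested gene, which median centring over all probes moved to -0.75 on the log2 scale. Calls higher and lower in CD133-positive cells were 1 and 0 for the members and 211 and 40 for all genes. All genes called lower were 119 without background correction. With a normexp offset of 16, members were 2 and 1 and all genes 398 and 150. With the deposited processed signals, or the value table, members were 3 and 2 and all genes 392 and 94. With median centring over all probes, members were 2 and 19 and all genes 483 and 9665, and over tested probes 11 and 5, and 1992 and 2084. Scaling between arrays gave 2 members lower, and 320 and 200 genes. The filter on both channels, which leaves Cdh5 untested, gave 0 members higher and 73 genes lower. No filter gave 0 members, and 29 and 0 genes. The dimmest probe gave 0 members and 12 genes lower. Without moderation, which leaves 1 degree of freedom, limma called 0 of all genes, so it says nothing of any member. At an unadjusted p under 0.05 the moderated test had 5 members higher and 11 lower. An intensity trend gave 3 and 1 members, and 494 and 326 genes. Taking 4 channels as separate samples gave 3 and 3 members, and 689 and 716 genes. Keeping outlier-flagged spots, chosen after seeing the data, gave 256 calls in all and Cdh5 as the member. Members at least 2-fold lower on both arrays were 1, but 2 without background correction, with the offset of 16, with scaling between arrays and with every probe a feature, 7 with processed signals or the value table, 8 and 4 with median centring over all and over tested probes, and 0 with the dimmest probe, which also left 1 at least 2-fold higher. The median of the members minus that of all genes was -0.05, but -0.11 with processed signals or the value table, 0.11 with both median centrings, 0.033 with the filter on both channels, 0.027 with no filter, 0.010 with every probe, 0.040 with the dimmest probe, and -0.011 to 0.019 when leaving out an array. Signs were turned by both median centrings for Ctnna1 (-0.43), Pkp1 (0.67), Pkp2 (-0.12) and Pkp3 (0.13), by array 1 alone for Ctnna1 (-0.13) and Pkp3 (0.09), and by the dimmest probe for Ctnnd1 (0.20) and Dsg2 (0.11). The cause was not tested. Over the alternatives with a test, Cdh5 was called in 11 of 14, Pcdh19 in 7 of 15 and Dsp in 6 of 15, with adjusted p-values of 0.00705 to 0.522 for Cdh5. Sizes moved too: with the processed signals or the value table Cdh5 was at 7.39, Pcdh19 at 4.22 and Pkp1 at -2.17 (adjusted p = 0.0468, a call), against 2.64, 2.64 and -0.12, and with the dimmest probe Cdh5 was at 1.24, Pcdh19 at 0.39 and Dsp at -0.25, which was -2.35. The test of within-array ratios is itself paired, and taking the channels as separate samples drops the pairing. Dim probes limit the 47 untested members, of which 43 had no probe well above background.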
